A study of Mus musculus with 25 samples.

Results

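Sterol and fatty acid synthesis in the mouse heart was followed through 30 genes, a fixed list of symbols that covers the regulators of both pathways and the enzymes from acetyl-CoA to cholesterol and to unsaturated long-chain fatty acids. They are 30 of 35969 genes for which transcript abundances were summed, and 28 of them were among the 11983 genes tested. Sqle and Elovl6 were left out of the tests because their mean level over all mice was below 1. The list names the genes by symbol, with no threshold on a measured value.

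Cells make cholesterol from acetyl-CoA through mevalonate and squalene, and they make palmitate from the same precursor through malonyl-CoA. Both routes are switched on by sterol regulatory element-binding proteins, membrane-bound transcription factors encoded by Srebf1 and Srebf2 that are held in the endoplasmic reticulum by Insig proteins while sterols are plentiful and are cut and released when sterols run low. SREBP-2 acts mainly on sterol genes and SREBP-1c on fatty acid genes. The heart burns fatty acids more than it makes them, and in cardiac muscle malonyl-CoA is known best as a brake on the entry of fatty acids into mitochondria.

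RNA was sequenced from the left ventricle of 25 male mice, 5 in each of 5 groups. WT CNTL and GPx4+/- CNTL mice ate a low-fat chow (6% of energy from fat), while WT HFHS and GPx4+/- HFHS mice ate a high fat high sucrose diet in which lard supplied 35.5% of energy, cholesterol 1.5% and sucrose 38%. WT HFHS + Carnosine mice ate the same HFHS diet and drank 80 mM carnosine, a histidine-containing dipeptide, from week 7. Every diet lasted 16 weeks and began at 8 to 10 weeks of age. GPx4+/- mice are littermates of the WT mice that carry a disrupted allele of Gpx4 in all tissues, on a line bred to C57BL6/J; Gpx4 encodes an enzyme that reduces lipid hydroperoxides. All mice were killed after a fast and an injection of either dextrose or saline, and which mouse received which is not given in the sources used here, so feeding state and glucose cannot be set beside any value. GPx4+/- HFHS mice given carnosine were not analysed here.

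The deposited values are TPM, the number of copies of a transcript per unit of RNA, a share of all transcripts in a library that is corrected for transcript length and keeps no read depth. Because mitochondrial transcripts took 31.5% to 49.0% of a library, the gene sums were divided by 1 scaling factor per library (0.865 to 1.16) and are called scaled TPM below. Gpx4, the disrupted gene, averaged 670 ± 47.1 scaled TPM in WT mice on CNTL, while GPx4+/- mice on that diet averaged 306 ± 43.1 (SD, n = 5 each). Across all groups no GPx4+/- mouse reached the lowest WT mouse. Markers of cardiomyocytes summed to between 36381 and 45213 in every mouse. Of the 4 markers of atrial cardiomyocytes, Nppa was at least 28.2 in every mouse, with a median of 112. The medians of Myl7, Myl4 and Sln were 2.53, 4.31 and 0.0697. The sum of all 4, which should be low in left ventricle, lay between 1480 and 7196 in 4 mice (WT CNTL 3, GPx4+/- CNTL 1 and 2, GPx4+/- HFHS 4). It lay between 30.5 and 579.6 in the other 21. The same 4 mice held between 2.16 and 15.0 of summed adipocyte markers, against 0.0538 to 5.14 in the others, and GPx4+/- CNTL 2 held 928.3 of summed hepatocyte markers. The diet comparison over both genotypes was also run without these 4 mice, and values that turned sign or crossed the adjusted threshold there are given beside the gene.

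The synthesis genes were expressed at modest levels in this tissue. Of the 30, 5 had a mean of 10 or more scaled TPM over the 25 mice, 12 lay between 5 and 10, 11 between 1 and 5, and 2 below 1. The median of the 28 tested genes was 6.07 scaled TPM against 9.04 for all tested genes. Srebf1 was the most abundant at 21.4 ± 4.06 (SD, n = 25), followed by Acly, the cytosolic enzyme that makes acetyl-CoA from citrate, at 16.2 ± 1.73, and by Fdps, which makes farnesyl pyrophosphate, at 13.2 ± 1.06. Srebf2 (10.5 ± 0.767) and Hmgcs1 (10.5 ± 0.940) were next and lay within each other's spread. Lss (1.01 ± 0.437), Sqle (0.479 ± 0.124) and Elovl6 (0.244 ± 0.0997) were the lowest. Sqle and Lss catalyse successive steps, the epoxidation of squalene and its closure to lanosterol. Scd1 had the largest SD (6.07), with values from 3.71 to 32.7, and is described with its mice below. As a ratio of highest to lowest Fdft1 spread more, from 9.00e-08 to 3.40.

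**Figure D1:**
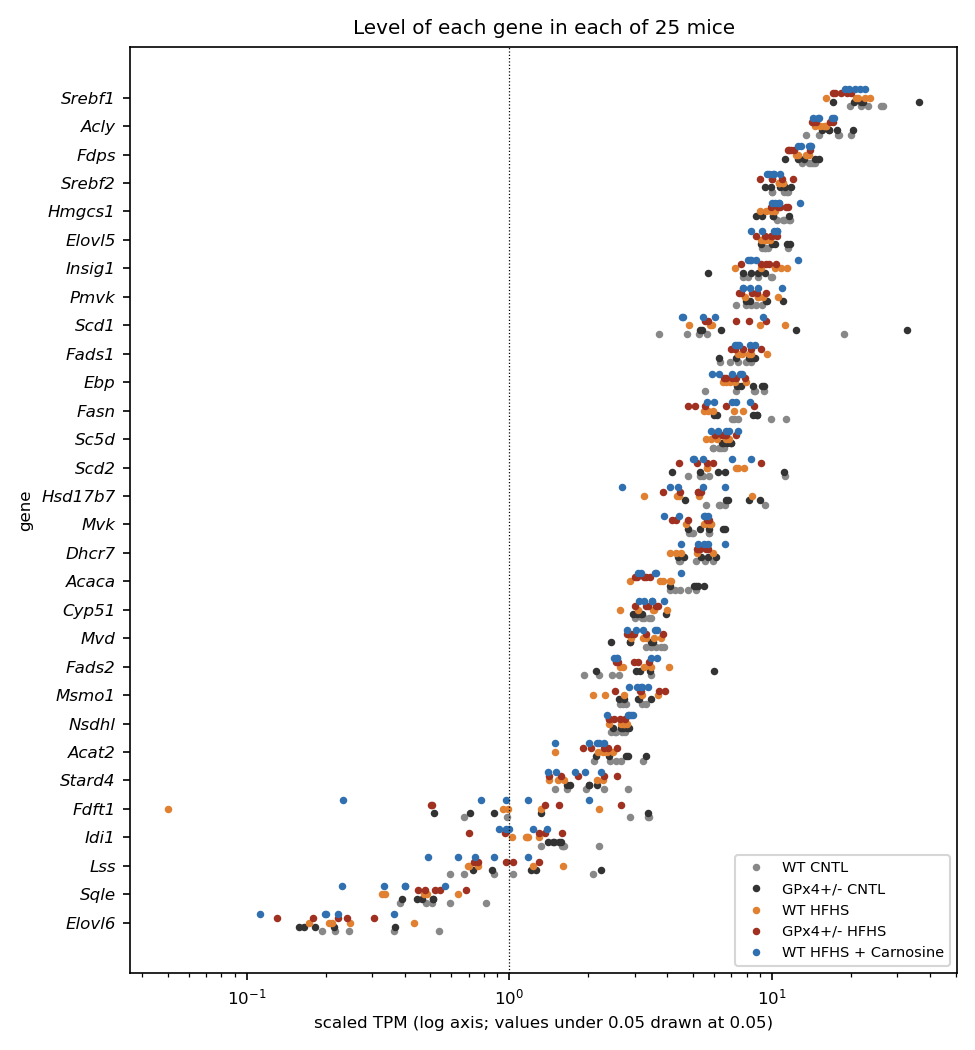
Scaled TPM on a log axis for each of the 30 genes, ordered by mean, with 1 point per mouse coloured by group. The dotted line marks a level of 1; Sqle and Elovl6 lie below it, and the widest rows are Fdft1, with 1 mouse drawn at the left limit, and Scd1, with single mice at 18.8 and 32.7.

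The main question was whether the obesogenic diet changed these genes. Over both genotypes, HFHS mice had lower RNA for 3 of the 28 tested genes and higher RNA for none, at an adjusted p under 0.05 from limma. The 3 were Acaca, the cytosolic acetyl-CoA carboxylase that makes malonyl-CoA for fatty acid synthesis, Idi1, which interconverts the isopentenyl units of the mevalonate pathway, and Hsd17b7, a ketoreductase that takes part in removing methyl groups from lanosterol. Over all tested genes 998 passed (8.33%), and 437 of these were lower (3.65%). Of the called genes 56.2% were thus higher, against 19.9% of 714 on TPM as deposited. At an unadjusted p under 0.05 stood 7 of the 28 genes (25.0%), against 24.5% of all tested genes, so this share of the list was close to that of the whole table. The direction was less even: all 7 were lower, against 11.8% of all tested genes that were lower at that p, and 22 of the 28 had a negative log2 fold change (78.6%, against 50.9% of all tested genes). Negative fold changes numbered 18 of 28 in WT (64.3%), 20 of 28 in GPx4+/- (71.4%) and 19 of 28 over both genotypes without the 4 mice with atrial RNA. The median log2 fold change of the list was -0.072 and that of all tested genes -0.0024. In bulk tissue, less RNA per cell and fewer cells of a type cannot be told apart. Median marker sums of several cell types also moved with diet, and were not tested. The median sum of cardiomyocyte markers was 44244 scaled TPM in WT CNTL and 38518 in WT HFHS, and 41410 and 40252 in the same diets in GPx4+/-. In WT the median went from 144 to 174 for endothelium, from 53.6 to 65.8 for macrophages, from 78.4 to 134 for smooth muscle and from 282 to 324 for fibroblasts. In GPx4+/- these medians were 151 and 162, 58.7 and 66.0, 71.1 and 101, and 287 and 308. Adipocyte markers had a median of 0.481 in WT CNTL and 3.74 in WT HFHS, against 2.16 and 0.203 in GPx4+/-. For the atrial list, in which Nppa had the highest median, the sums had medians of 142 and 104 against 257 and 48.3. The sum of Cidea and Ucp1, nearly all of it Cidea, had medians of 26.5 and 29.8 in WT and of 21.6 and 28.7 in GPx4+/-, where the groups did not overlap. Schwann cell markers had medians of 2.81 and 5.08 in WT and of 4.62 and 4.10 in GPx4+/-, and hepatocyte markers 5.08 and 4.03 against 7.79 and 14.0. The part of all these in the diet differences of the list was not tested either.

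**Figure D2:**
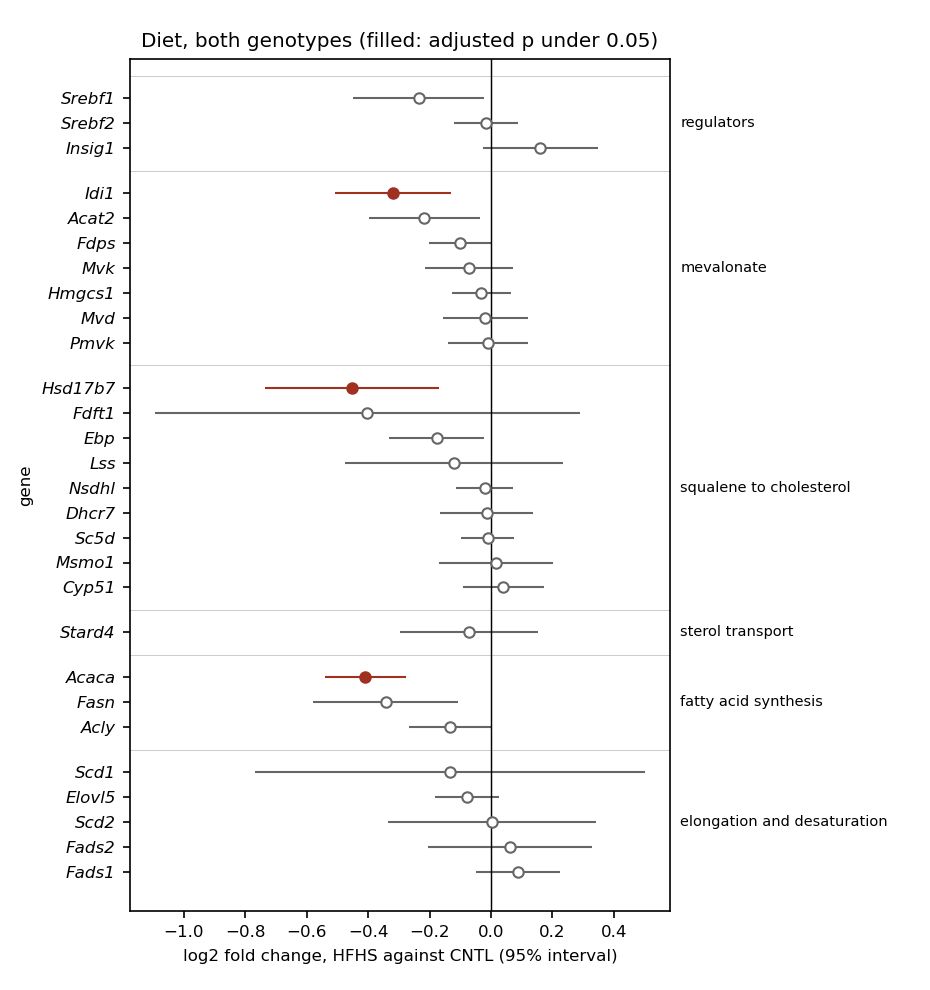
Log2 fold change of 28 genes between 10 HFHS and 10 CNTL mice, grouped by role, with 95% intervals from limma. Filled points (Acaca, Idi1, Hsd17b7) have an adjusted p under 0.05; of the 6 genes right of zero, Insig1 has the largest value at 0.16.

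Among the regulators, none passed the adjusted test for diet. Srebf1 (chromosome 11, 60199089 to 60222581, minus strand, GRCm38) was 26.5, 23.2, 19.8, 21.7 and 26.0 scaled TPM in the 5 WT CNTL mice and 16.1, 21.2, 23.6, 22.7 and 20.9 in the 5 WT HFHS mice. In GPx4+/- it was 21.8, 20.6, 36.4, 22.2 and 17.1 on CNTL and 17.1, 19.3, 20.0, 17.3 and 18.3 on HFHS. With carnosine it was 19.0, 20.7, 22.6, 21.7 and 19.6. The groups overlapped throughout, and the CNTL mean in GPx4+/- was raised by 1 mouse at 36.4. Over both genotypes Srebf1 had a log2 difference of -0.24 (standard error 0.102, adjusted p = 0.160), with a 95% interval of -0.45 to -0.022. Srebf2 (chromosome 15, 82147181 to 82205379, plus strand) was 10.0, 11.1, 11.4, 11.5 and 10.0 in WT CNTL and 11.0, 10.6, 10.7, 11.0 and 10.7 in WT HFHS. It was 11.9, 9.42, 11.2, 9.95 and 10.7 in GPx4+/- CNTL, 12.0, 8.97, 10.0, 10.0 and 10.9 in GPx4+/- HFHS and 9.57, 10.7, 10.1, 9.75 and 10.2 with carnosine. Its diet difference was the closest to zero of the 3 regulators (log2 fold change -0.017, standard error 0.0499, adjusted p = 0.875), with an interval of -0.12 to 0.088. Insig1, the sterol-responsive anchor that retains SREBPs, was 8.93 ± 1.02 (SD, n = 5) in WT CNTL, 9.76 ± 1.67 in WT HFHS, 7.99 ± 1.43 in GPx4+/- CNTL and 9.25 ± 1.02 in GPx4+/- HFHS (log2 fold change 0.16, standard error 0.0896, adjusted p = 0.284).

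The Srebf1 sum was spread over several transcripts. The transcript ENSMUST00000020846.7, which carried 44.7% of the gene's sum, had a mean of 10.0 ± 1.43 (SD, n = 5) in WT CNTL against 9.86 ± 1.66 in WT HFHS. ENSMUST00000144942.1, with 29.5% of the sum, was 7.57 ± 1.51 and 5.81 ± 0.990 in the same groups. In GPx4+/- the first was 10.3 ± 1.42 on CNTL and 8.35 ± 0.961 on HFHS, and the second 7.23 ± 2.07 and 5.53 ± 0.844. These transcripts were not tested singly. An exon of Rai1, on the opposite strand at a mean of 7.19 scaled TPM, covers 109 bases of a Srebf1 exon.

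In the mevalonate pathway all 7 genes had a negative log2 fold change over both genotypes, 5 of 7 did within each genotype, and 1 of 7, Idi1, passed the test. Idi1 (chromosome 13, 8885501 to 8892451, plus strand) was 2.19, 1.32, 1.61, 1.60 and 1.58 scaled TPM in WT CNTL and 1.02, 1.18, 1.16, 1.16 and 1.30 in WT HFHS, so that the lowest CNTL mouse at 1.32 stood just above the highest HFHS mouse at 1.30. In GPx4+/- it was 1.54, 1.57, 1.47, 1.40 and 1.48 on CNTL and 0.704, 1.59, 0.959, 1.36 and 1.30 on HFHS, where the groups overlapped through a single HFHS mouse at 1.59. With carnosine it was 0.912, 0.995, 0.972, 1.23 and 1.39. Idi1 RNA fell by 19.8% over both genotypes on the log2(scaled TPM + 0.5) scale (log2 fold change -0.32, standard error 0.0910, adjusted p = 0.0346), a scale that understates the change of a gene this low. The call was lost on leaving out WT CNTL 1 or 4, GPx4+/- CNTL 1, WT HFHS 1, 2 or 3, or GPx4+/- HFHS 1 or 3, with adjusted p up to 0.0651 over these 8, and was 0.0888 without the 4 mice with atrial RNA. An exon of the antisense gene Gm48574 covers 323 bases of an Idi1 exon; the libraries were stranded, and whether strand was used in the quantification is not given in the sources used here.

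Hmgcs1, the cytosolic synthase that commits acetyl units to the pathway, did not pass the adjusted test in either genotype, and its fold changes in the 2 genotypes had opposite signs. It was 11.0, 11.6, 11.1, 11.7 and 10.5 in WT CNTL and 10.1, 9.02, 10.3, 9.89 and 9.49 in WT HFHS (chromosome 13, 119690379 to 119708260, plus strand). These WT groups did not overlap (log2 fold change -0.19, standard error 0.0649, adjusted p = 0.161). In GPx4+/- it was 8.67, 9.14, 11.6, 10.1 and 10.1 on CNTL and 10.7, 10.6, 11.5, 9.91 and 11.3 on HFHS, with overlapping groups (log2 fold change 0.12, standard error 0.0649, adjusted p = 0.326). An exon of the antisense gene Gm48342 covers 458 bases of an Hmgcs1 exon, with the same limit as for Idi1. Hmgcs1 had the smallest unadjusted p of the list for the difference between the 2 diet effects (0.31, standard error 0.0918, unadjusted p = 0.00318), and its adjusted p was 0.651. Acat2, the thiolase of the first step, had the next smallest p of the pathway for diet over both genotypes (log2 fold change -0.22, standard error 0.0863, adjusted p = 0.125). The remaining 4 genes, Fdps, Mvk, Mvd and Pmvk, had log2 fold changes between -0.10 and -0.0095. That of Pmvk was 0.034 without the 4 mice with atrial RNA, so that 6 of 7 were then negative. Fdps then had an unadjusted p of 0.0190 (adjusted p = 0.124 from limma).

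From squalene to cholesterol 7 of 9 tested genes had a lower mean on HFHS, and Hsd17b7 passed the test. Hsd17b7 (chromosome 1, 169949535 to 169969241, minus strand) was 9.43, 6.29, 6.61, 6.34 and 5.59 in WT CNTL and 3.27, 4.35, 8.40, 4.42 and 5.25 in WT HFHS. In GPx4+/- it was 9.00, 4.68, 6.78, 8.15 and 6.66 on CNTL and 3.84, 5.35, 4.48, 5.22 and 5.24 on HFHS, and with carnosine 4.07, 5.45, 2.69, 4.39 and 6.62. The groups overlapped in both genotypes, in WT through 1 HFHS mouse at 8.40 and in GPx4+/- through 1 CNTL mouse at 4.68. Hsd17b7 RNA fell by 27.0% over both genotypes (log2 fold change -0.45, standard error 0.136, adjusted p = 0.0438). This call held on leaving out WT CNTL 5, GPx4+/- CNTL 2, WT HFHS 3 or GPx4+/- HFHS 2 and was lost on leaving out any of the other 16 mice, with adjusted p up to 0.0815, and it was 0.0574 without the 4 mice with atrial RNA. The protein-coding transcript ENSMUST00000027989.12, with 60.4% of the sum, was 3.90 ± 0.698 in WT CNTL, 2.87 ± 0.933 in WT HFHS, 4.41 ± 1.02 in GPx4+/- CNTL and 2.87 ± 0.382 in GPx4+/- HFHS (SD, n = 5 each).

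No other enzyme of this stretch passed. Ebp, the isomerase that shifts the double bond of the sterol ring, had a log2 difference of -0.18 (standard error 0.0742, adjusted p = 0.146). Cyp51 (lanosterol demethylase), Msmo1 (methylsterol oxidase), Nsdhl (a decarboxylating dehydrogenase), Sc5d (sterol desaturase) and Dhcr7, the last reductase before cholesterol, had log2 fold changes between -0.021 and 0.041, and that of Nsdhl was 0.0022 without the 4 mice with atrial RNA. For Sc5d the 95% interval was -0.10 to 0.076. Fdft1, squalene synthase, was 3.38, 3.40, 2.89, 0.674 and 0.982 in WT CNTL and 1.32, 0.950, 0.992 and 2.20 in 4 WT HFHS mice, with the remaining mouse listed at or near 0 (log2 fold change -0.40, standard error 0.331, adjusted p = 0.495). An exon of Ctsb, a cathepsin gene on the opposite strand at a mean of 252 scaled TPM, covers 774 bases of a Fdft1 exon, so reads of the pair may not have been told apart and the Fdft1 values are uncertain. Lss, the cyclase, spread from 0.491 to 2.23 over the 25 mice (log2 fold change -0.12, standard error 0.169, adjusted p = 0.716). Stard4, a cytosolic cholesterol carrier, had a log2 difference of -0.072 (standard error 0.108, adjusted p = 0.736).

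The smallest adjusted p of the list belonged to a gene of fatty acid synthesis. Acaca (chromosome 11, 84129672 to 84401651, plus strand) was 4.08, 4.48, 5.14, 4.27 and 4.79 scaled TPM in WT CNTL and 3.86, 4.14, 3.76, 2.87 and 4.09 in WT HFHS, where 2 HFHS mice (4.14 and 4.09) lay just above the lowest CNTL mouse. In GPx4+/- it was 5.16, 5.50, 4.08, 5.03 and 5.22 on CNTL and 3.44, 3.05, 3.31, 3.26 and 3.01 on HFHS, and these groups did not overlap. With carnosine it was 3.18, 3.58, 3.61, 4.49 and 3.10. Acaca RNA fell by 24.7% over both genotypes (log2 fold change -0.41, standard error 0.0633, adjusted p = 0.000569). The adjusted p stayed between 0.000188 and 0.00151 on leaving out each of the 20 mice in turn, and it was 0.00952 without the 4 mice with atrial RNA. The transcript ENSMUST00000020843.12 carried 68.0% of the sum and was 2.96 ± 0.357 in WT CNTL, 2.55 ± 0.327 in WT HFHS, 3.19 ± 0.200 in GPx4+/- CNTL and 2.43 ± 0.128 in GPx4+/- HFHS (SD, n = 5 each).

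Acacb, the other carboxylase, is the enzyme at the outer mitochondrial membrane whose malonyl-CoA restrains fatty acid entry, and was taken from a second list of the pathway. Its mean over the 25 mice was 21.7 times that of Acaca in scaled TPM, a scale that is per transcript length. Acacb was 88.3 ± 6.04 (SD, n = 5) in WT CNTL, 88.6 ± 5.57 in WT HFHS, 87.0 ± 7.22 in GPx4+/- CNTL and 86.1 ± 6.40 in GPx4+/- HFHS. Its log2 fold change with diet was -0.0047 with an interval of -0.10 to 0.091, beside -0.54 to -0.28 for Acaca; the difference between the 2 genes was not tested.

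Fasn, which builds palmitate from malonyl-CoA, had a lower mean on HFHS in both genotypes and missed the threshold. It was 7.42, 7.20, 11.3, 7.07 and 9.94 in WT CNTL and 5.68, 7.16, 5.52, 5.95 and 7.76 in WT HFHS. It was 8.80, 6.18, 8.47, 8.75 and 6.01 in GPx4+/- CNTL and 5.54, 5.10, 6.69, 8.54 and 4.78 in GPx4+/- HFHS. The groups overlapped in both genotypes (log2 fold change -0.34, standard error 0.113, adjusted p = 0.0653). Fasn passed when transcripts annotated as protein-coding alone were summed (log2 fold change -0.40, adjusted p = 0.00432 from limma), when GPx4+/- CNTL 2, GPx4+/- CNTL 5 or GPx4+/- HFHS 4 was left out (adjusted p 0.0253 to 0.0492), and without the 4 mice with atrial RNA (adjusted p = 0.0445). A retained-intron transcript held 17.4% of the Fasn sum. Acly had a log2 difference of -0.13 (standard error 0.0641, adjusted p = 0.209), and an unadjusted p of 0.0206 (adjusted p = 0.129 from limma) without those 4 mice.

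No elongation or desaturation gene passed. Elovl5, Scd2, Fads1 and Fads2 had log2 fold changes between -0.079 and 0.088, and the smallest adjusted p of the 5 tested genes was 0.356. In WT 4 of the 5 had a positive fold change and in GPx4+/- 4 of the 5 a negative one, with Fads2 at 0.30 and -0.18 (adjusted p = 0.416 and 0.649 from limma) and Scd1 at 0.13 and -0.40 (adjusted p = 0.912 and 0.681). Scd1, the stearoyl-CoA desaturase that makes oleate, was 5.26, 4.73, 18.8, 5.64 and 3.71 in WT CNTL and 5.90, 9.03, 4.81, 11.2 and 5.80 in WT HFHS. It was 12.4, 32.7, 6.37, 5.34 and 5.40 in GPx4+/- CNTL and 7.30, 5.70, 8.14, 9.51 and 5.54 in GPx4+/- HFHS. High values sat in single mice and not in a group. The mouse at 18.8 held 15.0 of summed adipocyte markers and 4560 of atrial markers, the mouse at 32.7 held the 928.3 of hepatocyte markers, while the mouse at 12.4 held 7196 of atrial and 9.30 of adipocyte markers. The part of these tissues in the Scd1 level was not tested, and adipocytes and hepatocytes are both known for high Scd1. The Scd1 log2 fold change with diet was -0.13 (standard error 0.304, adjusted p = 0.832) and turned to 0.35 (adjusted p = 0.164) without the 4 mice. Without them Fads2 went from 0.061 to 0.22 (unadjusted p = 0.0404, adjusted p = 0.184 from limma) and Scd2 from 0.0027 to 0.15 (adjusted p = 0.356). Of the marker lists, that of brown adipocytes held Ucp1, which was at most 0.0320 in any mouse, while Cidea, which the heart itself expresses, lay between 19.2 and 32.8.

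**Figure D3:**
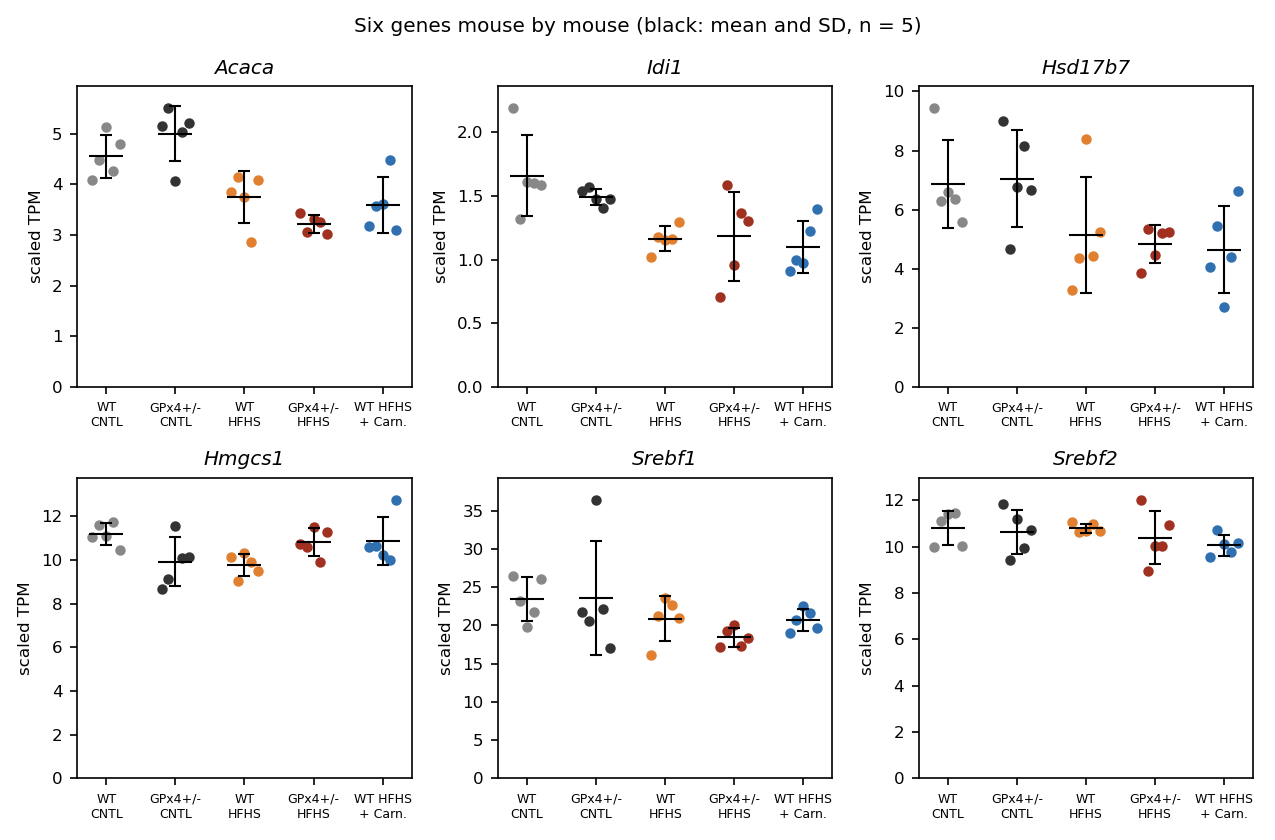
Scaled TPM of 6 genes in each of the 5 mice of each group, with mean and SD in black and axes from zero. Acaca, Idi1 and Hsd17b7 have lower means in the 3 HFHS groups than in the 2 CNTL groups; Srebf1 and Srebf2 overlap in all groups.

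Within a genotype the 5 mice of a group allowed fewer calls. In WT no gene of the list passed, 142 of all tested genes did (1.19%), and 5 of the 28 stood at an unadjusted p under 0.05 (17.9%, against 16.5% of all tested genes), all lower (Acaca, Hmgcs1, Idi1, Fasn, Hsd17b7). Lower at that p were thus 17.9% of the 28 and 7.56% of all tested genes. Hmgcs1 and Idi1 were the 2 of 28 genes whose WT groups did not overlap, against 4.51% of all tested genes. In GPx4+/- Acaca alone passed (log2 fold change -0.56, standard error 0.0895, adjusted p = 0.00243), among 400 of all tested genes (3.34%), of which 139 were lower (1.16%). Of these calls 65.3% were higher, against 8.73% of 424 on TPM as deposited, where Acaca also passed as lower. At an unadjusted p under 0.05 stood 6 of the 28 (21.4%, against 18.4% of all tested genes), all lower. Of the 28, 21.4% were thus lower at that p, against 9.15% of all tested genes. The Acaca call held on leaving out each mouse in turn (adjusted p 0.00107 to 0.00892). Acaca was also the 1 of 28 genes whose GPx4+/- groups did not overlap, against 4.47% of all tested genes. Its log2 fold change in WT was -0.26 (standard error 0.0895, adjusted p = 0.159). The difference between the 2 diet effects for Acaca was -0.30 (interval -0.57 to -0.038, unadjusted p = 0.0270, adjusted p = 0.681 from limma), so a larger effect in GPx4+/- was not shown. No gene of all those tested passed for a difference between the 2 diet effects (0%). Of all tested genes 856 stood at an unadjusted p under 0.05 (7.14%). On the list 2 of the 28 did (7.14%), Hmgcs1 and Acaca, so the share was that of the whole table.

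For the loss of a Gpx4 allele, over both diets, no gene of the 28 passed, among 7 of all tested genes (0.0584%), and the list split evenly with 14 higher and 14 lower in GPx4+/-. Its median log2 fold change was 0.00058, against -0.00053 for all tested genes. At an unadjusted p under 0.05 stood 2 of the 28 (7.14%, against 3.89% of all tested genes), Mvd, mevalonate pyrophosphate decarboxylase (log2 fold change -0.15, unadjusted p = 0.0374, adjusted p = 0.9997), and Sc5d (log2 fold change 0.091, unadjusted p = 0.0401, adjusted p = 0.9997 from limma).

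Carnosine was compared with plain water in WT HFHS mice only, and no gene of the list or of the whole table passed (0%, with limma). No gene of the list reached an unadjusted p under 0.05, against 504 of the 11983, and no member's groups failed to overlap, against 0.609% of all tested genes. The median log2 fold change was -0.035 for the list and -0.0011 for all tested genes. The intervals of the named genes were as follows. For Acaca the log2 fold change was -0.054 (interval -0.30 to 0.20), for Idi1 -0.062 (-0.30 to 0.18), for Hsd17b7 -0.12 (-0.65 to 0.41) and for Srebf2 -0.10 (-0.21 to 0.012). Hmgcs1 had the smallest unadjusted p (0.14, standard error 0.0717, unadjusted p = 0.0746, adjusted p = 0.947). It was 10.6, 10.7, 10.2, 10.0 and 12.8 in the carnosine mice, where 1 mouse at 12.8 stood above the rest. This comparison uses the WT HFHS mice that the diet comparison also uses, so its values and those of the diet are not independent.

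**Figure D4:**
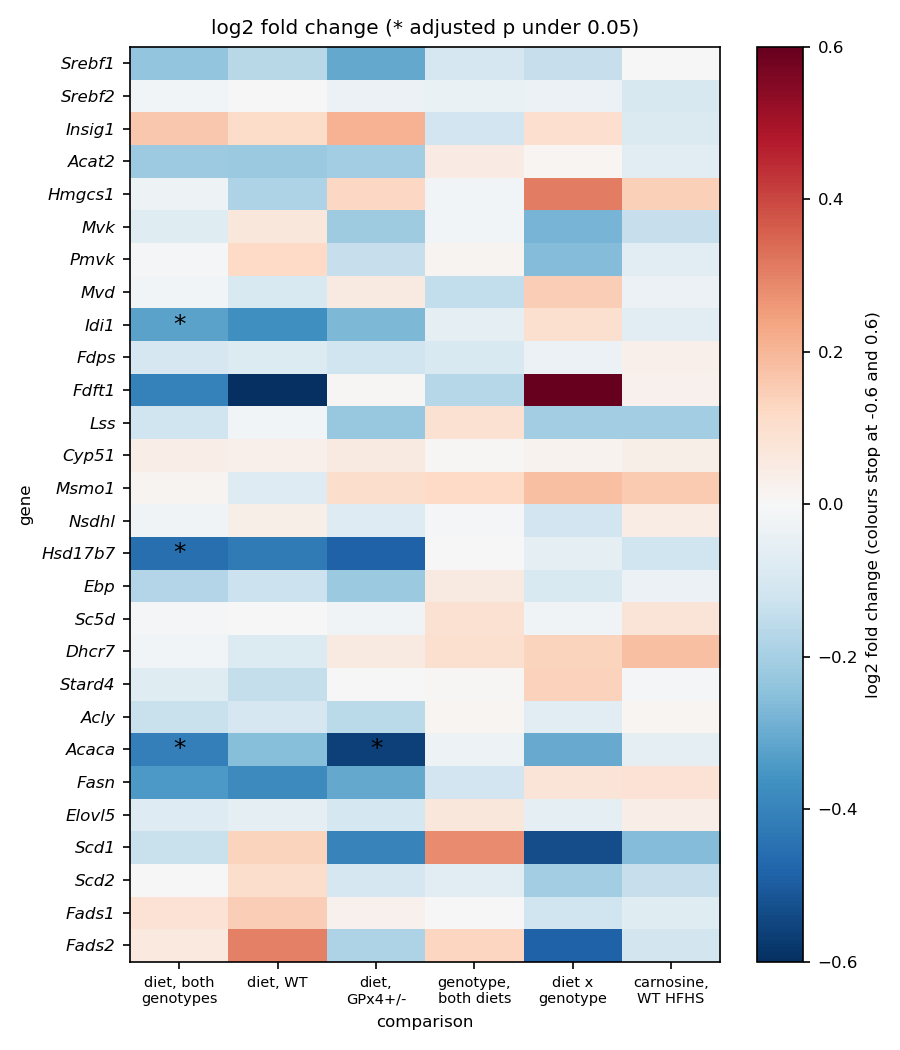
Log2 fold change of 28 genes (rows, by role) in 6 comparisons (columns), with a star where the adjusted p is under 0.05. Stars fall on Acaca, Idi1 and Hsd17b7 for diet over both genotypes and on Acaca for diet in GPx4+/-; the genotype, diet by genotype and carnosine columns hold none.

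Genes around the list were counted in the same fits. Of 37 further genes in 4 lists, 33 were tested, and 2 changed with diet over both genotypes (6.06%, against the 8.33% of all tested genes), both higher. Me1, malic enzyme, which supplies NADPH for fatty acid synthesis, was 71.3, 66.4, 66.8, 65.0 and 74.2 in WT CNTL and 85.9, 78.4, 101, 84.2 and 98.1 in WT HFHS. It was 65.6, 70.8, 79.8, 63.2 and 62.9 in GPx4+/- CNTL and 91.3, 89.7, 91.8, 82.8 and 83.2 in GPx4+/- HFHS. No HFHS mouse overlapped a CNTL mouse of its own genotype, and Me1 rose by 28.9% (log2 fold change 0.37, standard error 0.0511, adjusted p = 0.000234), opposite to Acaca; it passed in WT (adjusted p = 0.0173) and in GPx4+/- (adjusted p = 0.00977). Erlin2, an endoplasmic reticulum membrane protein, rose (log2 fold change 0.26, standard error 0.0758, adjusted p = 0.0380) and held its call when WT CNTL 1, GPx4+/- CNTL 3 or 5, WT HFHS 1, 4 or 5, or GPx4+/- HFHS 4 was left out, and lost it without any of the other 13 mice, with adjusted p up to 0.0691. Of the other sterol synthesis genes 0 of 5 tested passed. Of other fatty acid genes 1 of 10 passed (Me1), of SREBP processing and sensing genes 1 of 9 (Erlin2), and of LXR and ChREBP genes 0 of 9. LXR and ChREBP are sensors of oxysterols and of sugar that also act on these enzymes. The last list also holds their partners and targets of LXR, such as Abca1 and Abcg1.

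Whether a regulator and its targets varied together from mouse to mouse was asked for 8 pairs, after the group mean had been subtracted from each log2 value. None of the 8 passed a two-sided permutation test with shuffling within groups (100000 resamples, Benjamini-Hochberg over the 8). For Srebf1, Pearson's r over 25 mice was 0.13 with Fasn, -0.40 with Acaca, -0.23 with Scd1 and -0.08 with Elovl6, with adjusted p between 0.253 and 0.710. For Srebf2, r was 0.20 with Hmgcs1, 0.31 with Sqle and -0.14 with Insig1, with adjusted p between 0.253 and 0.693. Without the 2 mice farthest from the median of the regulator, r was -0.10 with Fasn, -0.19 with Acaca, -0.35 with Scd1 and -0.18 with Elovl6 for Srebf1, and 0.23 with Hmgcs1, 0.35 with Sqle and -0.31 with Insig1 for Srebf2. On TPM as deposited Srebf2 had r = 0.51 with Hmgcs1 (unadjusted permutation p = 0.0106) and 0.23 with Insig1. The Srebf2 and Idi1 pair had the largest size (r = -0.51, permutation p = 0.0471, adjusted p = 0.253; Spearman's rho = -0.34, permutation p = 0.155, adjusted p = 0.355), and r was -0.17 without 2 mice and -0.19 on TPM as deposited. The other Spearman's rho values lay between -0.31 and 0.36, with adjusted p between 0.355 and 0.700. RNA levels of the Srebf genes do not report the cut, nuclear form of the proteins.

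Pairs of members were also compared from mouse to mouse. Over 378 pairs of the 28 tested genes the median within-group r was 0.0084, with 20 pairs above 0.5 and a range of -0.61 to 0.86. The median was -0.022 over 16 sterol enzymes and 0.11 over 8 fatty acid enzymes. The 2 pairs with the highest r of the 378 are given as a description with no test. Insig1 and Acaca had r = 0.86 and Spearman's rho = 0.82 over 25 mice, 0.77 without the 2 mice farthest from the median of Insig1 and 0.88 on TPM as deposited. Mice low or high in Insig1 for their group tended to be low or high in Acaca, except in GPx4+/- HFHS. In that group Insig1 was 9.04, 7.64, 9.45, 10.4 and 9.71, and Acaca was 3.44, 3.05, 3.31, 3.26 and 3.01 in the same mice, with no rise. Scd1 and Fads2, the stearoyl and linoleoyl desaturases, had r = 0.85 and rho = 0.67, and 0.73 without 2 mice. All 25 points of a pair come from the same libraries, and the markers that follow Scd1 in single mice were given with its values.

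**Figure D5:**
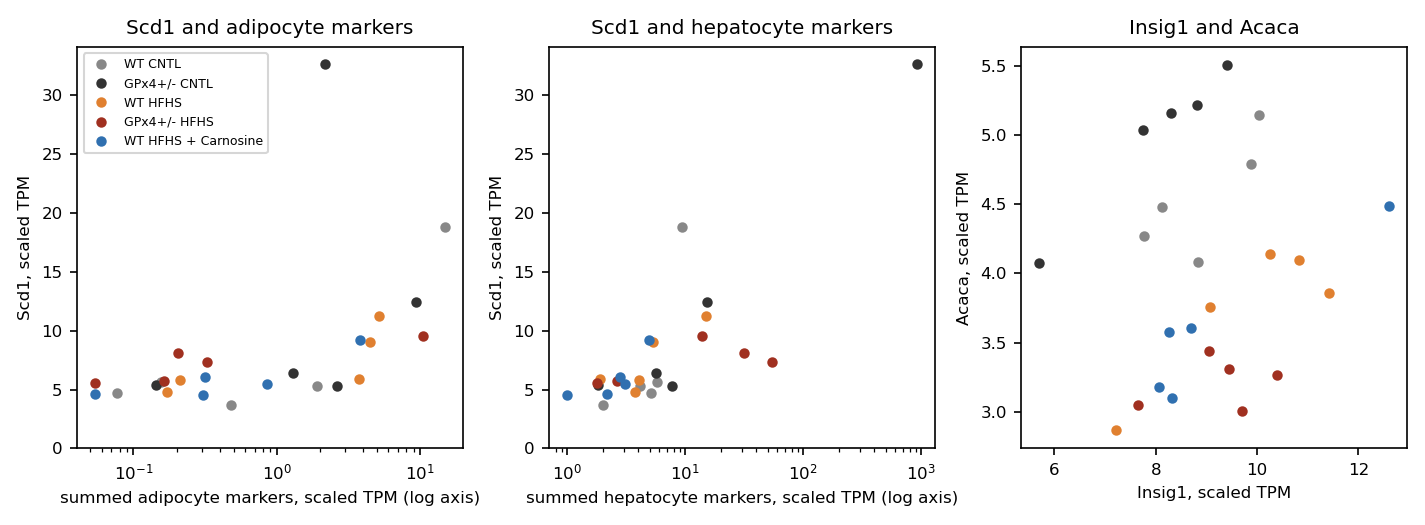
Scd1 against the summed adipocyte markers (left) and summed hepatocyte markers (middle), on log horizontal axes, and Acaca against Insig1 (right), all in scaled TPM with 1 point per mouse. The highest Scd1 values sit in mice with high adipocyte or hepatocyte markers, and Acaca goes up with Insig1 inside the groups other than GPx4+/- HFHS.

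Promoters were read for 23 of the 30 genes, which RefSeq's table (GRCm38.p6) lists with 28 starts, over 250 bases before each start and on both strands. The CCAAT box, searched as CCAAT, is the site of NF-Y, a factor known to act beside SREBP, and was in 19 of the 28 windows (67.9%), against 33.8% of all 32851 windows of the table and 34.8% of windows of tested genes. The GC box, GGGCGG, was in 20 windows (71.4%), against 32.7% of all and 57.5% of tested genes. A sterol regulatory element, searched as TCACNCCAC, was in 1 window, that of Hmgcs1, against 1.05% of all and 0.982% of tested genes. The E box, CACGTG, was in 5 windows (17.9%), against 6.02% of all and 8.24% of tested genes. The windows below are those of Hmgcs1, the 1 gene with a match to the string of the sterol element, and of Hsd17b7, which fell with diet. They are written 5′ to 3′ on the strand of the gene, with sterol element and CCAAT boxes (on either strand) in capitals.
Hmgcs1, chr13:119690101-119690350, plus strand: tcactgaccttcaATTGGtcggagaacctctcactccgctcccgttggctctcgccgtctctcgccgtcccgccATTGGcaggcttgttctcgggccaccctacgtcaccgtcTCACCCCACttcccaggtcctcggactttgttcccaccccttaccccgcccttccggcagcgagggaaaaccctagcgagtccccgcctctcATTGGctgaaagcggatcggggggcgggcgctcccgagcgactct
Hsd17b7, chr1:169969242-169969455, minus strand: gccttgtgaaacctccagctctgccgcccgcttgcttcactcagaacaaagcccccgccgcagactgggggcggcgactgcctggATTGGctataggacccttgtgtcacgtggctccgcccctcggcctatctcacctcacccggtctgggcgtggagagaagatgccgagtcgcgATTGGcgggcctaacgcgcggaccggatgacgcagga

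In Hmgcs1 the sterol element begins 137 bases before the start, and CCAAT boxes begin 237, 176 and 45 bases before it. In Hsd17b7 CCAAT boxes begin 165, 73 and 12 bases before the start, and the last of these lies in the 36 bases nearest to the start, which belong to an exon in GENCODE and are not printed. The window of Idi1 holds CCAAT boxes 45 and 14 bases before its start, in a stretch that GENCODE counts as exon, and is not printed. That of Acaca is not printed either, because it is the intron before an exon into which other Acaca transcripts are spliced; ENSMUST00000020843.12 is annotated to begin at that exon, so its window says nothing about a promoter. The counts above include it. No 2 matches overlapped in the Hmgcs1, Hsd17b7 and Idi1 windows. A match of letters is a description and not a binding site. A site with other letters, or outside the window, is missed, so a gene without a match may still have one.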

How the data were processed

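Left ventricular mRNA of 25 mice in 5 groups was analysed. The authors deposited TPM per transcript for 119215 transcripts; the submitters' processing notes name kallisto 0.43.1, sleuth 0.30.0 and GRCm38. Columns were matched to mice by library name, because the column positions in the labels disagree with the header. TPM were summed per gene over the 116772 transcripts found in GENCODE M21, divided by median-ratio factors over 11879 genes and put on a log2 scale with a pseudocount of 0.5. Depth cannot be had from TPM, and counting error is therefore not stated.

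The tests took genes whose scaled TPM averaged 1 or more, and used limma 3.58.1 (trend, R 4.3.3), with Benjamini-Hochberg adjustment over all genes and a threshold of 0.05. The authors' own tests, per their methods, used gene counts from another aligner. The 20 mice without carnosine shared 1 fit of 4 groups and the 10 WT HFHS mice another. p-values measure the spread between the mice sequenced. The test was tried on data with known changes. Members and lists were chosen with earlier results of these data known. Named members are Srebf1, Srebf2 and up to 8 called genes, filled to 4 by unadjusted p (Hmgcs1); Fasn, Scd1, Fdft1 and the pairs were named after their values were seen. Correlations used Python 3.11.15 and scipy 1.17.1. Replicate numbers mark different animals. A transcript length column was not used.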

Additional observations from a re-analysis of the deposited data

Results flagged for a closer look

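Within a group of 5 mice, a mouse was singled out when its gap to the nearest other mouse, divided by the range of the group, was above Dixon's 95% limit. Of 150 groups (30 genes in 5 groups) 14 did so (9.33%), in 12 genes. For independent normal values the limit is passed in about 1 in 20, here 7.50. The scaled TPM were not put on a log scale for this, and the genes come from the same mice. An excess over chance can therefore not be read from these counts. No cause was tested.

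Among desaturases and elongases, the mice with tissue markers described above recur. Scd1 was highest in WT CNTL 3, at 18.8 scaled TPM with the nearest mouse at 5.64 (ratio 0.873). Scd1 was highest in GPx4+/- CNTL 2, at 32.7 scaled TPM with the nearest mouse at 12.4 (ratio 0.742). Scd2 was highest in WT CNTL 3, at 11.2 scaled TPM with the nearest mouse at 5.77 (ratio 0.848). Elovl5 was highest in WT CNTL 1, at 11.5 scaled TPM with the nearest mouse at 9.62 (ratio 0.805). Elovl6 was highest in GPx4+/- CNTL 2, at 0.366 scaled TPM with the nearest mouse at 0.214 (ratio 0.728). Elovl6 was highest in WT HFHS 3, at 0.434 scaled TPM with the nearest mouse at 0.247 (ratio 0.712). WT CNTL 3 and GPx4+/- CNTL 2, which account for 4 of these 6, are 2 of the 4 mice with high atrial markers.

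The regulators and the remaining enzymes gave 8 more. Srebf1 was highest in GPx4+/- CNTL 3, at 36.4 scaled TPM with the nearest mouse at 22.2 (ratio 0.736). Hmgcs1 was highest in WT HFHS + Carnosine 5, at 12.8 scaled TPM with the nearest mouse at 10.7 (ratio 0.763). Fdft1 was highest in GPx4+/- CNTL 5, at 3.36 scaled TPM with the nearest mouse at 1.32 (ratio 0.716). Fdps was highest in GPx4+/- HFHS 3, at 13.9 scaled TPM with the nearest mouse at 12.2 (ratio 0.744). Cyp51 was highest in GPx4+/- CNTL 5, at 3.96 scaled TPM with the nearest mouse at 3.19 (ratio 0.764). Insig1 was highest in WT HFHS + Carnosine 4, at 12.6 scaled TPM with the nearest mouse at 8.70 (ratio 0.861). Nsdhl was lowest in WT HFHS + Carnosine 2, at 2.35 scaled TPM with the nearest mouse at 2.82 (ratio 0.766). Hsd17b7 was highest in WT CNTL 1, at 9.43 scaled TPM with the nearest mouse at 6.61 (ratio 0.734).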

How the results depend on the processing

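Over both genotypes 3 members passed for diet. The count was 1 with a minimum mean of 5 (Hsd17b7, since Acaca and Idi1 then stood below it), 1 without a filter and 1 with the replicate number as a block (Acaca in both), and from 1 to 4 on leaving out each mouse. It was 3 on TPM as deposited, with quantile normalization, with a pseudocount of 0.1 and with array weights, 4 with protein-coding transcripts, 2 with all 25 mice in one fit and 2 without the 4 mice with atrial markers (Acaca and Fasn, with adjusted p 0.0888 for Idi1 and 0.0574 for Hsd17b7). For diet in GPx4+/- the count was 0 with a minimum mean of 5, which leaves Acaca out, and 1 in every other alternative and on leaving out each mouse (1 to 1). The counts for WT, genotype, diet by genotype and carnosine were 0 throughout. The replicate numbers were no pairing: deviations of same-numbered mice correlated between -0.34 and 0.23 (median -0.0047).

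On TPM as deposited the median of all genes shifted by -0.052 (log2) for diet over both genotypes and by -0.10 in GPx4+/-, and 19.9% of called genes were higher against 56.2% after scaling. Acaca, Idi1 and Hsd17b7 were lower on both scales. The Srebf2 diet difference changed sign with protein-coding transcripts (0.029), and on leaving out each mouse it lay between -0.043 and 0.0077, above 0 without GPx4+/- CNTL 1 (0.0025) or GPx4+/- HFHS 2 (0.0077). The r of Srebf2 and Insig1 was 0.23 on TPM as deposited, and that of Srebf1 and Fasn was -0.10 without 2 mice. That of Srebf2 and Hmgcs1 was 0.51 on TPM as deposited (unadjusted permutation p = 0.0106). The 4 mice with atrial markers were left out as an alternative chosen after seeing the data. Causes were not tested, and TPM do not allow a statement on depth.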
